A study of Mus musculus with 55 samples.

Results

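The genes described here carry glucose sensing and electrical excitability in the β cell: Slc2a2, G6pc2, Kcnj11, Abcc8, Cacna1c, Cacna1d and Pcx, 7 of the 47937 genes counted in bulk islet RNA-seq. They were chosen by name, with earlier results of these data known, and were followed through all 16 libraries. The islets came from C57B6/J mice, all males by the study's methods unless stated otherwise there. The methods describe hand-picking and culture of isolated islets, and, for RNA, direct lysis of purified islets. Whether the islets of these libraries were cultured first is not stated. The groups were wild-type (WT) islets (3 libraries at 8 weeks of age and 3 at 25 weeks), islets heterozygous for Eed (HET; 3 and 2 libraries) and islets of βEedKO mice (3 and 2 libraries), in which RIP-Cre, driven by an insulin promoter, deletes floxed Eed in β cells. The labels do not say whether the WT and HET mice carried RIP-Cre. Eed is a core subunit of Polycomb repressive complex 2 (PRC2), which places the silencing mark H3K27me3. Non-β cells of the islet keep Eed, and bulk counts sum over all islet cells, so fewer β cells and less RNA per β cell cannot be told apart. By the study's methods the libraries are biological replicates that pool islets of 1 or 2 animals each, and of at least 4 animals each for βEedKO at 25 weeks.

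In the β cell, glucose enters through GLUT2, the transporter encoded by Slc2a2, and is phosphorylated. G6pc2, the islet glucose-6-phosphatase catalytic subunit, reverses that step, and Pcx, pyruvate carboxylase, feeds pyruvate carbon into the mitochondrial cycle. The rise in ATP closes the KATP channel, built from the pore Kir6.2 (Kcnj11) and the sulfonylurea receptor SUR1 (Abcc8), and the depolarised membrane opens the L-type calcium channels whose pores are encoded by Cacna1c (Cav1.2) and Cacna1d (Cav1.3), which lets in the calcium that triggers insulin release.

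At 25 weeks, the 3 members for glucose handling fell in βEedKO islets, while the 4 for the KATP and L-type channels did not pass the test, although Abcc8 passed it in 4 of 20 alternative analyses; the difference between these sets was not tested. G6pc2 was 12.4-fold lower than in WT, Slc2a2 7.4-fold lower and Pcx 5.75-fold lower. At 8 weeks, no member passed the test against WT. At 25 weeks the low-Km hexokinase Hk1, the transporter Slc2a3 and the T-type calcium channel pores rose in βEedKO islets.

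RefSeq (GRCm38.p6) windows of 300 bases, from 250 before to 50 after a start, were read for 5 members; Kcnj11 and Abcc8 had none in the table used. The 150 bases before 1 start in active chromatin are printed 5′ to 3′ on the gene's strand for each of the 5, as the stretch next to the start that carries the active state. Capitals mark 3 motifs searched on both strands: GGGCGG (the core of a GC box), TATAAA, and TGCTGAC (the core of the Maf recognition element).
Slc2a2, chr3:28697753-28697902, plus strand: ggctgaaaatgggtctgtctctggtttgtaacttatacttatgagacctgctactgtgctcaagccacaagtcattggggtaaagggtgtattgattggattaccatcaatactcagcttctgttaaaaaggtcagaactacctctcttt
G6pc2, chr2:69219799-69219948, plus strand: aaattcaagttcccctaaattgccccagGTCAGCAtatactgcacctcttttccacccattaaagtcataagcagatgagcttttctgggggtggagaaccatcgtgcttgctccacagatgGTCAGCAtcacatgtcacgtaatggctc
Pcx, chr19:4510322-4510471, plus strand: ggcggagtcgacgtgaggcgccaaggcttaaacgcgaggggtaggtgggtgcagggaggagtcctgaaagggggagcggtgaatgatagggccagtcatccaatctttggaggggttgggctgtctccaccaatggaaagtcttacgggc
Cacna1c, chr6:119108496-119108645, minus strand: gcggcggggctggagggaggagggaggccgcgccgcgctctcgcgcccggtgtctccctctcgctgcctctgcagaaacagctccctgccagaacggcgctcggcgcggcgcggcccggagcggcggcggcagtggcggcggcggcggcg
Cacna1d, chr14:30353487-30353636, minus strand: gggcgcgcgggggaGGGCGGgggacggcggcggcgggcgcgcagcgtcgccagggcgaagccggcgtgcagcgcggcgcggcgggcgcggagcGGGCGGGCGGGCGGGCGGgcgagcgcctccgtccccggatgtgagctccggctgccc
The full 300-base windows of Cacna1c and Cacna1d held 57 and 63 CpG dinucleotides and 6 GGGCGG matches each, those of Slc2a2 and G6pc2 held 2 and 5 CpG and no GGGCGG, and that of Pcx held 20 CpG and 2 GGGCGG. The median over 32851 RefSeq windows was 7 CpG, and GGGCGG was present in 35.7% of them. The G6pc2 window held TGCTGAC at 2 places and the other 4 windows held none, and 4.67% of all windows held it. TATAAA was in none of these 5 windows, against 13.6% of all. Base composition differed between starts of the same gene: the windows at the other Cacna1c starts held 7 and 3 CpG and no GGGCGG, that at the other Cacna1d start 4 CpG, no GGGCGG and 3 TATAAA, and those at the other starts of G6pc2 and Pcx 6 and 5 CpG. A match is a description of the letters and not of a bound site.

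These starts lay in active chromatin states in WT islets. The study's segmentation gives each 200 bp bin of the WT genome 1 state letter. The study's text describes A as active, L and M as bivalent, N and O as related Polycomb states, and S as silent. Other letters are given here without a name. The start of the gene record was in state A for 4 members, Slc2a2, Kcnj11, Abcc8 and Pcx, where 25.5% of 25640 annotated genes had that state. For the other members, the record began far upstream of the start that carried state A: G6pc2 (chr2:69211073-69227841, plus strand) began in state X and had state A 8898 bp downstream. Cacna1c (chr6:118587240-119196418, minus strand) began in D and had A at 87845 bp, and Cacna1d (chr14:30039939-30491455, minus strand) began in G and had A at 137969 bp. Taking the most common state over all annotated transcript starts also gave 4 members in A, with G6pc2 in place of Abcc8. Slc2a2 (chr3:28697903-28731359, plus strand) and Abcc8 (chr7:46104523-46180033, minus strand) were covered for 65.16% and 64.63% of their length by state F, and Kcnj11 (chr7:46093953-46100764, minus strand) mostly by B and F. Pcx (chr19:4510472-4621752, plus strand) differed in having the bivalent state L in 29.99% of the 2 kb on either side of its start. No annotated start of a member was in state L, M, N or O. As background, 2.9% of tested genes with a start in state A were called lower at 25 weeks and 0.443% called higher.

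Levels are given as CPM, the share of a library's reads scaled to a common total with TMM factors over the 16 libraries; the lowest count of any member in a library was 161 reads. Per kilobase of exon, the mean in the 8-week WT islets was 797 ± 214 for G6pc2 (SD, n = 3), 95.4 ± 41.3 for Abcc8, 77.9 ± 43.3 for Slc2a2, 26.2 ± 6.31 for Pcx, 15.7 ± 3.66 for Kcnj11, 11 ± 2.18 for Cacna1d and 2.75 ± 0.853 for Cacna1c. G6pc2 stood above the others in every library of this group, and Cacna1c below. Abcc8 and Slc2a2 overlapped, as did Kcnj11 and Cacna1d. The library levels of all members are shown in the plot of CPM by group.

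**Figure D1:**
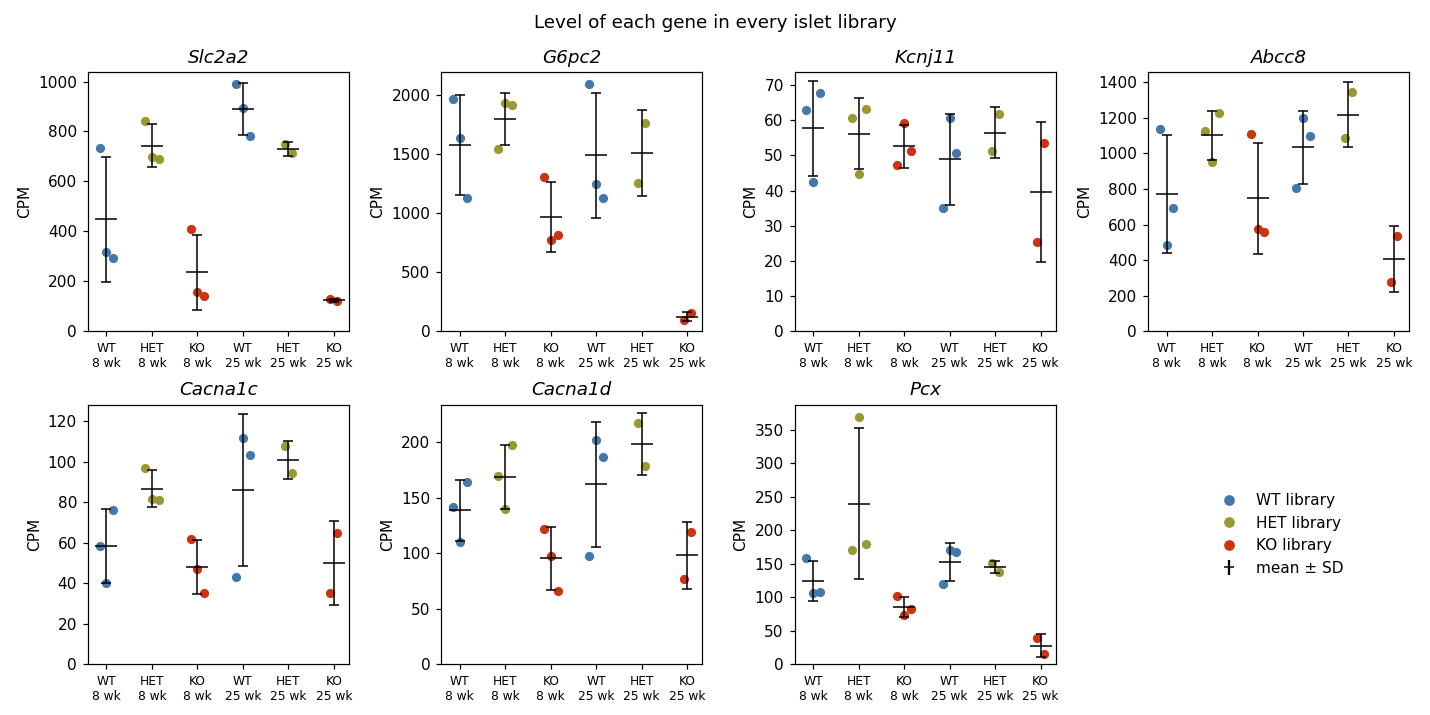
CPM (linear axes from 0) of each gene in every library, by genotype and age, with the group mean ± SD in black. In βEedKO islets at 25 weeks, both libraries of Slc2a2, G6pc2, Abcc8 and Pcx lie below every WT library of that age, while those of Kcnj11, Cacna1c and Cacna1d overlap WT.

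Some features of the libraries stood beside all these results. Totals ran from 4645393 reads (WT replicate 2 at 25 weeks) to 22925359. Eed ran from 19.26 to 33.08 CPM in WT from 16.34 to 20.52 CPM in HET and from 13.44 to 15.6 CPM in βEedKO libraries. Ins1, Ins2 and Gcg took 1.795% and 3.906% of counts in βEedKO islets at 25 weeks, and 10.11% to 21.32% elsewhere. The 6 β cell markers summed to 13730 and 17070 CPM in those 2 libraries against 121200 to 217100 in WT of that age, and 5 of the 6 were called lower. The 7 markers of other endocrine cells summed to 15380 and 17040 CPM against 10060 to 12100, with 2 called higher. At that age, duct markers (5 genes) summed to 631.9 and 548.1 CPM in βEedKO against 256.1 to 308.1 in WT, with 2 called higher. Mesenchyme markers (5 genes) summed to 186.9 and 173.6 CPM against 61.19 to 79.91, with 2 called higher, and macrophage markers (4 genes) to 104.9 and 66.49 CPM against 30.87 to 37.5, with 1 called higher. Endothelial markers (4 genes) summed to 329 and 257.6 CPM against 247.2 to 287.2, with 0 called. Acinar markers (8 genes) summed to 285500 CPM in βEedKO replicate 2 and 7741 in replicate 3, against 22400 to 159600 in WT. At 8 weeks, 6 interferon-induced genes summed to 1937 to 3323 CPM in WT replicates 3 and 4 and βEedKO replicates 4 and 5, and to at most 34.44 CPM in the other 5 libraries of that age. The part of these features in the results below was not tested, except where a value without a library is given.

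The first comparison asked how the members differ between βEedKO and WT islets at 25 weeks. Of the 7 members, 3 were called lower at an adjusted p under 0.05 and 4 were not called (edgeR quasi-likelihood test with Benjamini-Hochberg adjustment over all genes). In this comparison 6.6% of 18685 genes were called, 2.02% lower and 4.58% higher. The members were chosen with earlier results of these data known, so their share is no independent finding. The median log2 fold change was -1.41 over the members and 0.03 over all genes.

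Slc2a2 had 991.1, 893.3 and 783.8 CPM in the WT libraries and 129.3 and 120.1 CPM in the βEedKO libraries at 25 weeks. Both βEedKO libraries lay far below all WT libraries and close to each other. On the log2 scale βEedKO differed from WT by -2.89 ± 0.56 (standard error, SE), with an adjusted p of 0.0134 in edgeR. Without either βEedKO library the size held (-2.96 and -2.83), but the call did not (adjusted p = 0.0998 without replicate 2 and 0.118 without replicate 3).

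G6pc2 had 2092, 1241 and 1129 CPM in WT and 98.39 and 151.1 CPM in βEedKO islets at 25 weeks. The groups were separated by a wide gap. The log2 difference was -3.63 ± 0.48 (SE; adjusted p = 0.00222), and the call held under all 20 alternatives run.

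Pcx had 119.5, 169.8 and 167.7 CPM in WT and 39.64 and 15.22 CPM in βEedKO islets. The lower of the 2 βEedKO libraries was replicate 3, the one with few acinar transcripts. The log2 difference was -2.52 ± 0.41 (SE; adjusted p = 0.00541), from -3.40 to -1.99 with 1 library left out, and the call held under all 20 alternatives.

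Neither KATP subunit was called. Abcc8 had 806.9, 1199 and 1100 CPM in WT and 275.2 and 535.8 CPM in βEedKO islets, with no overlap between the groups; 15.9% of all tested genes likewise had every βEedKO library below every WT library. Its log2 difference of -1.41 ± 0.48 (SE) was not called (adjusted p = 0.119), but was called in 4 of 20 alternatives: with the replicate number as a block (adjusted p = 0.0443), with DESeq2 (0.0224), with WT and HET pooled as control (0.0297) and without both replicates 1 at 8 weeks (0.0317). Kcnj11 had 35.1, 60.73 and 50.67 CPM in WT and 25.49 and 53.57 CPM in βEedKO islets. The groups overlapped, and the fold change of Kcnj11 turned positive with scaling by library size alone, so no direction is given for it.

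The L-type pores were not called. Cacna1d had 97.89, 202.4 and 186.4 CPM in WT and 76.93 and 119.5 CPM in βEedKO islets (log2 difference -0.78 ± 0.37 SE, adjusted p = 0.275). Cacna1c had 42.95, 111.8 and 103.1 CPM in WT and 35.23 and 64.71 CPM in βEedKO islets (-0.84 ± 0.45 SE, adjusted p = 0.332). For both genes the lowest WT library was replicate 2, the shallowest, and it lay between the βEedKO libraries. Between libraries of the same number, both genes were lower in βEedKO at 25 weeks, with log2 differences of -0.35 (replicates 2) and -0.76 (replicates 3) for Cacna1d and of -0.29 and -0.79 for Cacna1c. With the replicate block neither was called (adjusted p = 0.157 for Cacna1d and 0.219 for Cacna1c). At 8 weeks the same-number differences were -0.22 and -0.75 for Cacna1d and 0.08 and -0.70 for Cacna1c (replicates 1 and 4).

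**Figure D2:**
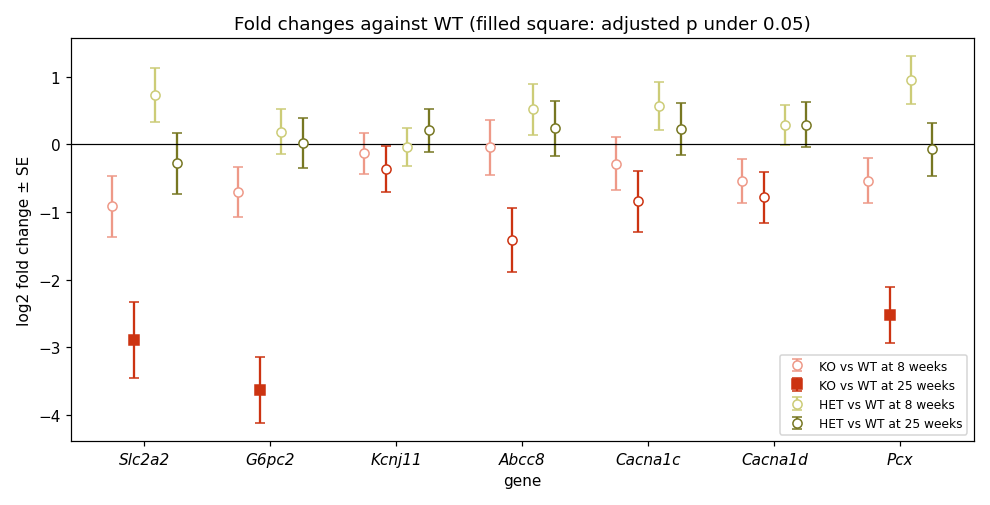
Log2 fold change ± standard error (vertical axis) of each gene against WT of the same age in βEedKO and HET islets; filled squares have an adjusted p under 0.05. Filled squares appear at Slc2a2, G6pc2 and Pcx in βEedKO islets at 25 weeks and nowhere else.

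At 8 weeks, none of the 7 members was called between βEedKO and WT islets, where 0.434% of genes were called. All 7 log2 fold changes were negative, with a median of -0.54 against 0 over all genes, but Kcnj11 and Abcc8 changed sign with scaling by library size. Slc2a2 had 735.5, 316.1 and 293.4 CPM in WT and 409.5, 158.3 and 142.8 CPM in βEedKO islets. The highest library of each genotype was replicate 1, the one low in interferon-induced genes, and the groups overlapped. Between libraries of the same number, Slc2a2 differed by -0.84 (log2) for replicates 1 and by -0.89 for replicates 4. In the fit it differed by -0.92 ± 0.45 (SE; adjusted p = 0.675), and by -1.02 (adjusted p = 0.0979) without both replicates 1.

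G6pc2 had 1959, 1637 and 1123 CPM in WT and 1303, 774.2 and 815.2 CPM in βEedKO islets at 8 weeks (log2 difference -0.71 ± 0.37 SE, adjusted p = 0.713). Pcx had 159.2, 106.4 and 108.1 CPM in WT and 101, 72.68 and 82.47 CPM in βEedKO islets, and was the only member at this age with every βEedKO library below every WT library, as were 4.86% of all genes. Its adjusted p was 0.782.

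Whether the change differed between the ages was tested as an interaction. None of the members was called, and neither were most genes (0.198% called). The difference of the log2 fold changes was -2.93 ± 0.57 for G6pc2 (SE; adjusted p = 0.0959), -1.98 ± 0.51 for Pcx (adjusted p = 0.214) and -1.97 ± 0.68 for Slc2a2 (adjusted p = 0.433). G6pc2 was called in 3 of 20 alternatives: with DESeq2, with all 16 libraries in 1 fit and with WT and HET pooled as control. Pcx was called in 1 of 20, with DESeq2 (adjusted p = 0.0155). Within βEedKO islets, G6pc2 fell between 8 weeks (mean 964, SD 294 CPM, n = 3) and 25 weeks (mean 124.8, SD 37.3 CPM, n = 2), by -3.00 ± 0.47 on the log2 scale (SE; adjusted p = 0.0141 in edgeR); 1.5% of genes were called there. It was the 1 member called, and the call was lost in 4 of 18 alternatives: without βEedKO replicate 2 (adjusted p = 0.151) or 3 (0.0906) at 25 weeks, with library size alone (0.065) and with library size without the hormone genes (0.0589). Within WT islets no member was called between the ages, and 0% of genes were called (0 in edgeR, with 1898 at an unadjusted p under 0.05).

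The HET libraries were compared with WT and with βEedKO. No member was called between HET and WT at 8 or 25 weeks, and 0% of genes were called at either age (edgeR; 2743 genes at 8 weeks and 210 at 25 weeks had an unadjusted p under 0.05). At 25 weeks Slc2a2 was 751.3 and 711.9 CPM in HET, and G6pc2 was 1251 and 1763 CPM. Against HET, βEedKO islets at 25 weeks were lower in Slc2a2, G6pc2 and Pcx (3 of 7; 8.36% of genes were called), with log2 fold changes of -2.55, -3.59 and -2.40, and Abcc8 had an adjusted p of 0.0515. Slc2a2 lost that call in 4 of 23 alternatives, without either HET library (adjusted p = 0.0535 and 0.0557) or either βEedKO library (0.0703 and 0.0569) of that age, and Pcx lost it in 1, the replicate block (adjusted p = 0.0749). As 27.9% of genes had every βEedKO library below both HET libraries, such a gap is common here.

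Against HET at 8 weeks, Slc2a2 and Pcx were called lower in βEedKO islets (2 of 7; 4.74% of genes were called). Slc2a2 had 841.1, 696.9 and 687.9 CPM in HET, above all 3 βEedKO libraries, and differed by -1.65 ± 0.41 (log2, SE; adjusted p = 0.0408). Pcx had 170.1, 369.9 and 179.9 CPM in HET, and differed by -1.49 ± 0.36 (log2, SE; adjusted p = 0.0369). The highest value, 369.9 CPM, was in HET replicate 2, which stood apart from the other 15 libraries in genes picked after their values were seen: Cs, citrate synthase, was 602.5 CPM there and at most 107.9 elsewhere, Hk2, a hexokinase, 118.4 and at most 15.5, and Cacna1s, the L-type pore of skeletal muscle, 10.29 and at most 0.5448. Without that library Pcx differed by -1.03 (adjusted p = 0.126), Slc2a2 by -1.69 (adjusted p = 0.0909), and 0 members were called. The part of this difference between the libraries in the Pcx value was otherwise not tested. In both genes every HET library exceeded every βEedKO library, as in 14.5% of all genes. All 3 HET libraries were low in interferon-induced genes and 2 of the 3 βEedKO libraries were high. Slc2a2 lost its call in 14 of 23 alternatives and Pcx in 11. Both calls were lost with the replicate block and with library size without the hormone genes. They were also lost without any 1 of the HET libraries of that age or βEedKO replicate 4 or 5. Leaving out WT replicate 3 or 4 at 25 weeks, which enter only the shared fit, also lost both (edgeR adjusted p = 0.0503 to 0.0574). So did leaving out either HET library at 25 weeks, and Slc2a2 alone lost its call without either βEedKO library of that age. Without βEedKO replicate 1 at 8 weeks, 4 members were called. HET and βEedKO share only replicate number 1 at this age.

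Ratios within a library do not depend on scaling between libraries. The log2 ratio of Abcc8 to Kcnj11 was 4.52, 4.30 and 4.44 in WT and 3.43 and 3.32 in βEedKO islets at 25 weeks, with a gap between the groups. It showed no such gap at 8 weeks. Over both ages the two-sided exact permutation p (genotype permuted within age, 200 arrangements) was 0.14 (adjusted p = 0.21 over 3 ratios). The ratio of Cacna1d to Cacna1c differed by -0.13 between the genotypes (exact permutation p = 0.255).

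Among 55 further genes of stimulus-secretion coupling, 54 were tested at 25 weeks. In βEedKO islets 8 of them were called higher and 3 lower (20.4%). Over all genes, 6.6% were called at that age, 4.58% higher and 2.02% lower. The lists were chosen with earlier results of these data known, so the difference in shares is no independent finding. The median log2 fold change was -0.04 over the coupling genes and 0.03 over all genes. No coupling gene was called at 8 weeks, where 0.434% of all genes were called. In the list for glucose entry and phosphorylation, 2 of 8 rose and 1 fell. Hk1, the hexokinase that works at low glucose, had 10.25, 5.644 and 6.498 CPM in WT and 41.7 and 51.91 CPM in βEedKO islets, with no overlap (log2 difference 2.61 ± 0.33 SE, adjusted p = 0.00184). Slc2a3, the high-affinity transporter GLUT3, had 9.157, 1.655 and 2.089 CPM in WT and 51.74 and 58.01 CPM in βEedKO islets (log2 difference 3.72 ± 0.64 SE, adjusted p = 0.00748). The duct, mesenchyme and macrophage markers were higher in the same libraries, and their part in these rises and in those of the calcium channels below was not tested. Pfkfb2, which sets the level of the glycolytic activator fructose-2,6-bisphosphate, fell with a log2 fold change of -1.54 (adjusted p = 0.0277), and Slc2a1, the transporter GLUT1, was not called (adjusted p = 0.7).

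Of 11 genes of anaplerosis and the mitochondrial shuttles, 1 fell, Gpd2, the mitochondrial glycerol-3-phosphate dehydrogenase (log2 fold change -1.54, adjusted p = 0.0272). None of 12 other potassium channel genes was called at 25 weeks, the KATP paralogs Kcnj8 and Abcc9 included (adjusted p = 0.271 and 0.59).

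Of 16 tested genes for other calcium channel subunits, 4 rose and none fell. Cacna1g, Cacna1h and Cacna1i encode the pores of T-type channels, which open at low voltage, and all 3 rose. Cacna1g had 2.18, 2.558 and 2.089 CPM in WT and 25.72 and 20.91 CPM in βEedKO islets at 25 weeks, a log2 difference of 3.29 ± 0.45 (SE; adjusted p = 0.00251). Cacna1i had 0.301 to 1.09 CPM in WT and 5.25 and 11.06 CPM in βEedKO (3.71 ± 0.67, adjusted p = 0.00959; adjusted p = 0.084 with the replicate block), and Cacna1h 4.361 to 6.923 and 15.29 and 22.61 CPM (1.64 ± 0.40, adjusted p = 0.0378). Cacna2d2, an auxiliary α2δ subunit, rose by 3.63 (adjusted p = 0.00204). The other high-voltage pores were not called: Cacna1a had an adjusted p of 0.301 and Cacna1b 0.573. Cacna1e, the R-type pore, had 2.398, 1.505 and 1.47 CPM in WT and 7.99 and 10.33 CPM in βEedKO islets, with no overlap (2.32 ± 0.76, adjusted p = 0.108). It was called with DESeq2, with WT and HET pooled and without both replicates 1 at 8 weeks, and it was called against HET at 25 weeks (adjusted p = 0.0377).

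**Figure D3:**
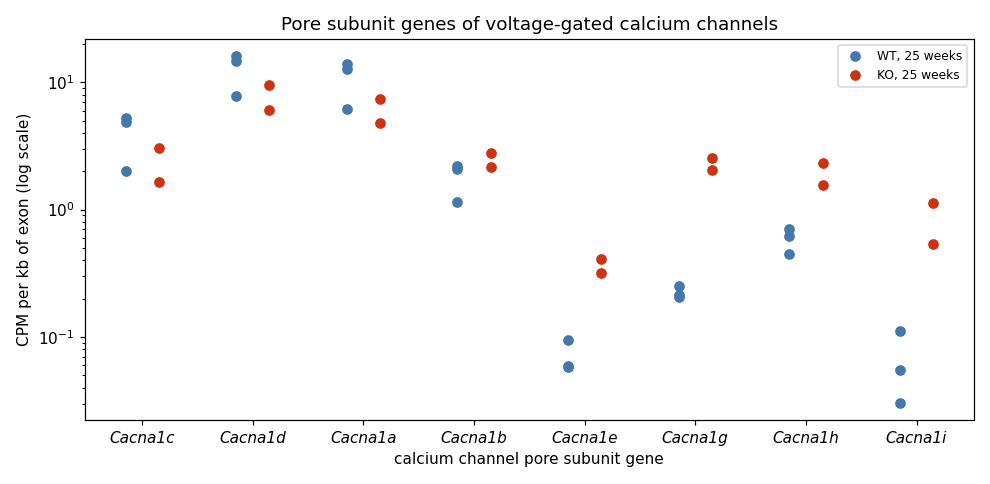
CPM per kilobase of exon (log axis) of 8 calcium channel pore genes in WT (3 libraries) and βEedKO (2 libraries) islets at 25 weeks. The L-type genes Cacna1c and Cacna1d overlap between genotypes, while both βEedKO libraries of Cacna1g, Cacna1h, Cacna1i and Cacna1e lie above every WT library; Cacna1e was not called.

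Among 7 sodium and TRP channel genes, Scn3a, a sodium channel pore gene, rose (log2 fold change 1.36, adjusted p = 0.0348), and Trpm5, a calcium-activated cation channel, fell. Of the coupling genes named, Scn3a and Cacna1h, with Pfkfb2 and Gpd2, lost the call in 6 to 10 of 20 alternatives, and Cacna1i in 4; Hk1, Slc2a3, Cacna1g, Cacna2d2 and Trpm5 kept it in all 20.

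**Figure D4:**
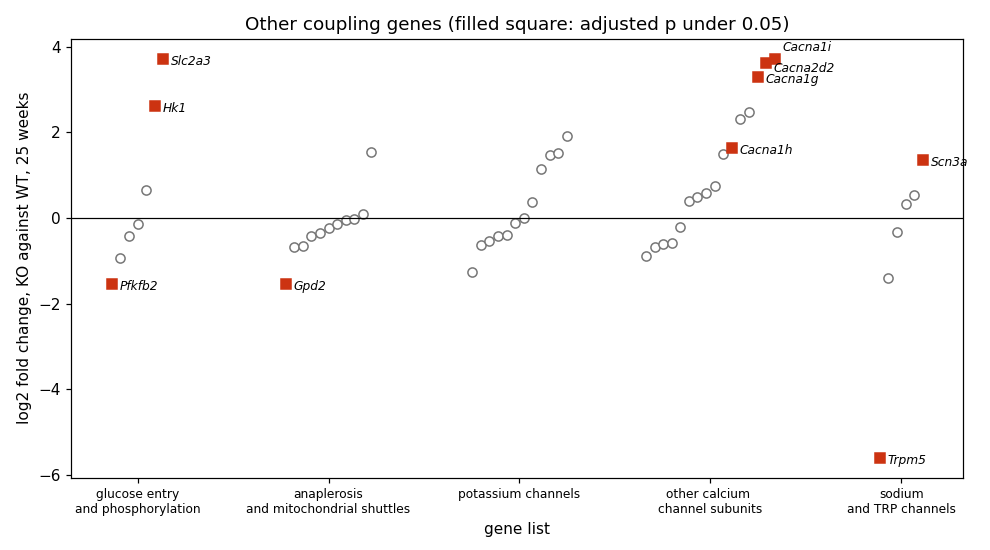
Log2 fold change between βEedKO and WT islets at 25 weeks (vertical axis) of tested genes, by list; filled squares are genes with an adjusted p under 0.05, named. The filled squares above 0 are Slc2a3, Hk1, Cacna1g, Cacna1h, Cacna1i, Cacna2d2 and Scn3a, and those below 0 are Pfkfb2, Gpd2 and Trpm5.

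Across the 16 libraries, the genes whose log2 CPM followed each member most closely were compared by Pearson r among 11388 genes, as a description, since the libraries share genotype, age and depth. G6pc2 was nearest to Skap1, Slc30a8 (the zinc transporter of insulin granules) and Ppp1r1a (r = 0.979, 0.977 and 0.974), and Slc2a2 to Cyp4f39, Pbx3 and Dcaf8 (0.975, 0.968 and 0.967). Pcx was nearest to Hadh, Ero1lb and Ptpra (0.948, 0.935 and 0.922), and Abcc8 to Mlxipl, which encodes the glucose-responsive factor ChREBP, Osbpl5 and Grip1 (0.966, 0.953 and 0.953). Cacna1d and Cacna1c shared Prrc2b as a near gene (0.979 and 0.967). Kcnj11 had no gene above 0.881, the r of C2cd2l.

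Reads that overlap other genes bear little on these values. Cacna1d shares 589 bp of exon, 4.67% of its exon length, with Chdh on the other strand, and no other member shares exon with a second gene. The kit does not mark strand, and whether counting used strand is not stated.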

How the data were processed

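Bulk RNA-seq libraries of mouse islets were analysed, 16 in 6 groups. The deposited table holds unnormalized read counts per gene; per the labels and the study's methods, the authors mapped reads to GRCm38 (TopHat2, version 2.0.13) and counted them on Gencode M9 models by featureCounts of Subread 1.5.0-p1. In all, 0 count columns were left unused. The deposited chromatin segmentation holds EpicSeg state letters per 200 bp bin, a label and not a level. Single-cell barcodes and other data types were not used here.

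Counts were tested in R 4.3.3 with edgeR 4.0.16 (TMM, filterByExpr by group, quasi-likelihood test, Benjamini-Hochberg, threshold 0.05): 18685 genes in a fit of the 11 WT and βEedKO libraries and 18828 in a fit of all 16, used for HET. An SE is the size of a log2 difference over the square root of its F statistic. DESeq2 1.42.0 was an alternative, with other scalings, no filter, other controls, a replicate block and each library left out. The common biological coefficient of variation was 0.456. Identifiers of 47224 of the 47937 genes were found in a later GENCODE release of the same build and 713 were not. Named genes are the 7 members, coupling-list genes called at either age with paralogs and partners, the 3 genes with the highest r to each member (mean of at least 5 CPM, log2 of CPM plus 1), and overlapping genes. Of the coupling lists, 2 genes are counted but not reported here by name or drawn. The members and lists were chosen with earlier results of these data known.

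WT and βEedKO libraries of 1 number shared deviations from the group mean (18828 genes): at 8 weeks the correlation was 0.579 for replicates 1 and 0.302 for replicates 4. At 25 weeks it was 0.273 (replicates 2) and 0.403 (replicates 3). The main tests compared group means without a replicate block. The number served as a block only in an alternative fit, and to match libraries for the same-number differences. Without the same correlation for libraries of unlike number as a contrast, these values do not establish that the numbers mark pairs. The labels do not say what the numbers mark. No 2 libraries of a group were alike within sampling noise (chi-square per degree of freedom at least 31.03). On counts simulated for the comparison of βEedKO with WT at 25 weeks (18113 genes), 88% of 200 genes changed by a log2 of 3 were recovered. Of 184 calls, 8 were false. Smaller changes and deviations shared between libraries were not simulated, so the figure does not cover members with smaller log2 differences.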

Additional observations from a re-analysis of the deposited data

Results flagged for a closer look

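Trpm5, a calcium-activated cation channel gene of the sodium and TRP channel list, was the 1 gene among the members and coupling lists whose change between βEedKO and WT islets differed between the ages by a test of the difference itself: the log2 fold change was lower at 25 than at 8 weeks by -4.63 (standard error 0.53, adjusted p = 0.00614 in edgeR). Trpm5 had 179, 104.7 and 94.76 CPM in WT and 1.826 and 3.512 CPM in βEedKO islets at 25 weeks, and 103.3, 57.38 and 84.42 against 49.06, 32.5 and 43.96 CPM at 8 weeks. Over all genes, 0.198% were called in this test. The list that holds Trpm5 was chosen with earlier results of these data known, so its place there is no independent finding.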

How the results depend on the processing

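Members called for βEedKO against WT ranged from 2 to 4 at 25 weeks and were 0 at 8 weeks under all 20 alternatives each, and those for HET against WT at 25 weeks were 0 under all 23. The small groups limit every test, and βEedKO and HET at 25 weeks have 2 libraries; with 1 left out, the lone library is assumed to vary like the other groups. Causes were not tested.

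Members called in βEedKO against HET at 8 weeks (2) became 1 with library size alone, 0 with library size without Ins1, Ins2 and Gcg, 0 with the replicate block, and 0 to 4 with 1 library left out. At 25 weeks that comparison (3) gave 2 to 5 with 1 library left out. The interaction (0) gave 2 with DESeq2, 1 with all 16 libraries and 1 with WT and HET pooled. βEedKO at 25 against 8 weeks (1) gave 2 without a filter and with DESeq2, and 0 to 1 with 1 library left out. Coupling genes called at 25 weeks (11) numbered 7 with library size alone, 6 without the hormone genes, 20 with DESeq2, 17 with pooled controls and 5 to 14 with 1 library left out, and at 8 weeks (0) 2 with DESeq2 and 3 with pooled controls. Without replicates 1 of WT and βEedKO at 8 weeks, chosen after seeing the data, the counts were 21 coupling genes at 25 weeks, 1 member for WT by age (Slc2a2), 2 for βEedKO by age (G6pc2 and Pcx), 1 for HET against WT at 8 weeks (Slc2a2) and 5 for βEedKO against HET at 8 weeks. The Abcc8 to Kcnj11 ratio difference ran from -0.68 to -0.36 with 1 library left out.

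Differences near 0 changed sign (log2). For βEedKO against WT, Kcnj11 at 25 weeks became 0.026 with library size alone and ran from -0.99 to 0.052 with 1 library left out. At 8 weeks, Kcnj11 became 0.058 with library size alone, 0.096 without the hormone genes in it and 0.0047 without both replicates 1 (-0.30 to 0.0039 with 1 library left out), and Abcc8 became 0.19 and 0.24 with those library sizes (-0.43 to 0.32). The interaction ran from -0.88 to 0.19 for Kcnj11 and from -0.60 to 0.033 for Cacna1d. For WT by age, G6pc2 became 0.047 and 0.052 with the library sizes and 0.12 without both replicates 1 (-0.40 to 0.096). For βEedKO by age, Cacna1d became 0.029 with DESeq2 and with its size factors, 0.22 with library size alone, 0.063 without a filter, 0.044 with all 16 libraries and 0.21 without both replicates 1 (-0.34 to 0.26), and Cacna1c ran from -0.47 to 0.37. For HET against WT at 8 weeks, Kcnj11 became 0.0019 and 0.016 with the library sizes, 0.27 with the replicate block and 0.053 without both replicates 1 (-0.22 to 0.10), and G6pc2 became -0.073 with the block (-0.0054 to 0.31). At 25 weeks, G6pc2 became -0.0053 with DESeq2's size factors and -0.0052 with DESeq2 (-0.24 to 0.34), Pcx 0.036 and 0.080 with the library sizes (-0.22 to 0.0086), and Cacna1c ran from -0.093 to 0.46. For βEedKO against HET at 8 weeks, Kcnj11 became 0.056 and 0.080 with the library sizes (-0.24 to 0.041). The replicate block changed no call of a member or named coupling gene beyond those given beside the results.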
